A study of Mus musculus with 36 samples.

Results

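The 10 genes described here encode the core of the mammalian circadian clock and some of its closest outputs: the period genes Per1 and Per2, the cryptochrome genes Cry1 and Cry2, the nuclear receptor genes Nr1d1 and Nr1d2, the output factor Dbp, the activators Arntl and Clock, and the repressor Bhlhe40. They were taken by name from the 16416 named genes of the table, all 10 were found, and all 10 were among the 11656 genes that passed the filter on low values. RNA was sequenced from mouse bone marrow-derived macrophages (BMDMs), grown for 7 days from bone marrow with L929 cell supernatant, a source of the macrophage growth factor M-CSF. The cells carried either the D310N form of Tnip2, which encodes the ubiquitin-binding protein ABIN-2, or wild-type Tnip2 (WT). They were unstimulated (0 min) or had been given 100 ng/ml lipopolysaccharide (LPS), a bacterial cell wall component, for 30, 60, 120, 240 or 360 min, with 3 libraries in each of the 12 groups. The labels give neither the strain nor the age of the mice, and they do not say whether replicates came from separate animals or cultures, so p-values measure the spread between these samples, which may be technical. Every later time had received LPS and none was left unstimulated for as long, so LPS and time in culture cannot be told apart in what is called an LPS response below.

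In the clock of mammalian cells, the proteins CLOCK and BMAL1 (encoded by Arntl) form a pair that binds E-box elements and activates the Per, Cry, Nr1d and Dbp genes. PER and CRY proteins accumulate and repress that pair, and the NR1D receptors (also called REV-ERB) repress Arntl, so the loop closes on itself. BHLHE40 (also called DEC1) binds E-boxes too and represses there, and it is also known as a transcription factor of activated lymphocytes and macrophages. In macrophages the clock is known for setting the strength of inflammatory gene expression by time of day, and NR1D1 is known as a repressor of inflammatory genes.

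The deposited values are normalised log2 values, and read depth is unknown. Library medians ranged from 6.83 to 7.2. The mutated gene Tnip2 had group means of 8.82 to 9.34, and its level cannot show the D310N change. Of the 36 libraries, WT replicate 1 at 360 min stood furthest from its group: its root mean square log2 distance to the other libraries of the group was 0.369, while every other library was at 0.266 or less. All 8 macrophage markers lay above the filter minimum in every library, with a summed log2 level of 17.73 to 18.10. Of the other lists, 2 of 7 neutrophil, 2 of 4 dendritic cell, 1 of 5 fibroblast and 0 of 4 B cell markers passed the filter, and no T cell, NK cell, erythroid or mast cell marker did. The dendritic cell sum was 3.73 to 4.07 in unstimulated libraries and 5.96 to 6.54 at 120 to 360 min, with Flt3 and Siglech below 1 throughout, so it moved with the LPS responses below, and its part in them was not tested. In bulk RNA, fewer cells of a type and less RNA per cell cannot be told apart.

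The stretches of DNA around the gene starts are shown for 4 genes whose RNA took different courses under LPS: Per1 and Nr1d1, which fell deeply; Cry1, which rose; and Nr1d2, which dipped at 120 min. Each runs 5′ to 3′ on the gene's own strand from 250 bases before to 50 bases after a start annotated by RefSeq (GRCm38.p6), where 8 of the 10 genes had 12 promoters in all. The windows lie at chr11:69098699-69098998 (plus strand) for Per1, chr10:85185005-85185304 (minus strand) for Cry1, chr11:98775328-98775627 (minus strand) for Nr1d1 and chr14:18239057-18239356 (minus strand) for Nr1d2. Capitals mark matches to the motifs searched.
Per1: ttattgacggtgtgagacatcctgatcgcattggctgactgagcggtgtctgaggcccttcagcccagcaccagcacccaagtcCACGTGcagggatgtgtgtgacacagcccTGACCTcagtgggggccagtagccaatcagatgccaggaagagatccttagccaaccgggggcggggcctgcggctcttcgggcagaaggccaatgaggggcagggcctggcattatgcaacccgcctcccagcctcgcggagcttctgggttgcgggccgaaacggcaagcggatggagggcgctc
Cry1: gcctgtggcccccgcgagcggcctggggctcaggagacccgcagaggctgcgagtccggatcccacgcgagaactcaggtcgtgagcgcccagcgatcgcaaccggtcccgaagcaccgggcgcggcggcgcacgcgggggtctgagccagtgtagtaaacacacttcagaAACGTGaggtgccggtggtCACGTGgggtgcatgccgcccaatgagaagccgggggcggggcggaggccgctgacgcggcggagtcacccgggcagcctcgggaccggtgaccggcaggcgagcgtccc
Nr1d1: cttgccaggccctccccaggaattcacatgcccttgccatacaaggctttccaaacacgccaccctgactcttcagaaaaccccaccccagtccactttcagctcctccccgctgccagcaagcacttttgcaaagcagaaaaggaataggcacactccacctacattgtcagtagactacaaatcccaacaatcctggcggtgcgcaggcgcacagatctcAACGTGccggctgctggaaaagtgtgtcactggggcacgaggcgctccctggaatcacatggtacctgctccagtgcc
Nr1d2: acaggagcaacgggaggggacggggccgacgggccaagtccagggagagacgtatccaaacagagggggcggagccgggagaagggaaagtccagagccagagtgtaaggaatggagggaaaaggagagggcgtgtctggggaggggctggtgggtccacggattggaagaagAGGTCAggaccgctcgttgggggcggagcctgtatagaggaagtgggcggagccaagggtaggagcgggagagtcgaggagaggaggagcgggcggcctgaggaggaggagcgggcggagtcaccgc

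The letters searched on both strands were the E-box CACGTG, a variant E-box CACGTT, the D-box TTATGTAA or TTACGTAA, the element AGGTCA that ROR and NR1D receptors read, and the cyclic AMP response element TGACGTCA or TGACGCAA. The E-box and its variant share their opening letters. In the Per1 window, CACGTG began 166 bases before the start, at -166. TGACCT, the reverse complement of AGGTCA (that is, AGGTCA read on the other strand), lay at -137. The Cry1 window held CACGTG at -60 and AACGTG, the reverse complement of the variant, at -79. Nr1d1 held AACGTG at -28, and Nr1d2 held AGGTCA at -77. None of these matches overlapped another. Elsewhere, Cry2 held the variant at -166, the second Arntl promoter AGGTCA at 31 bases after the start, and the third Clock promoter its reverse complement at -119. The second Per1 window, at chr11:69099902-69100201, held none of the letters searched, and neither did the Dbp promoter, the other Arntl promoter or the other Clock promoters. Across all 32851 promoters of the table, the E-box stood in 7.15%, the variant in 4.68%, the D-box in 1.06%, AGGTCA in 16.3% and the cyclic AMP response element in 2.26%. A match is a description of these letters and no evidence of binding.

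Under LPS the clock genes divided. Per1 was lower from 60 min on, and Per2, Dbp and Nr1d1 from 120 min on (Dbp in D310N already at 60 min, Nr1d1 in D310N not at 360 min), Cry2 was lower from 240 min on, Cry1 and Clock rose, and Bhlhe40 rose early and fell late, in D310N and WT macrophages alike except where stated. Genes were tested with limma on the log2 values of all 36 libraries, and a gene passed at a Benjamini-Hochberg adjusted p under 0.05. In D310N macrophages, 2 of 10 passed at 30 min, Arntl and Bhlhe40, both higher, where 5.16% of all tested genes passed as higher and 1.48% as lower. At 60 min, 3 were higher and 2 lower (all genes: 21.3% and 17.2%). At 120 min, 3 were higher and 6 lower (31.9% and 32.1%). At 240 min, 2 were higher and 6 lower (39% and 40.2%), and at 360 min again 2 and 6 (39% and 41%). In WT macrophages, 1 of 10 passed at 30 min, Bhlhe40 as higher, where 4.79% of all genes passed as higher and 1.3% as lower. At 60 min 2 were higher and 1 lower (all genes: 20.1% and 17.1%). The counts were 3 higher with 6 lower at 120 min (32.4% and 34.2%), 2 higher with 6 lower at 240 min (39.6% and 40.4%) and 2 higher with 7 lower at 360 min (39.3% and 41%).

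From 120 min on, most expressed genes of these macrophages passed the test, so a count of clock genes says little by itself, and the sizes are more informative. In D310N macrophages the median size of the LPS change among the clock genes, on the log2 scale without its sign, was 0.21, 0.30, 0.51, 1.05 and 0.71 at 30, 60, 120, 240 and 360 min. Over all tested genes it was 0.07, 0.14, 0.29, 0.47 and 0.50. In WT macrophages it was 0.16, 0.25, 0.59, 1.2 and 0.88 among the clock genes and 0.07, 0.14, 0.30, 0.50 and 0.51 over all genes. All times of a genotype are set against the same 3 unstimulated libraries, so the 5 responses of a genotype are not independent of each other.

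**Figure D1:**
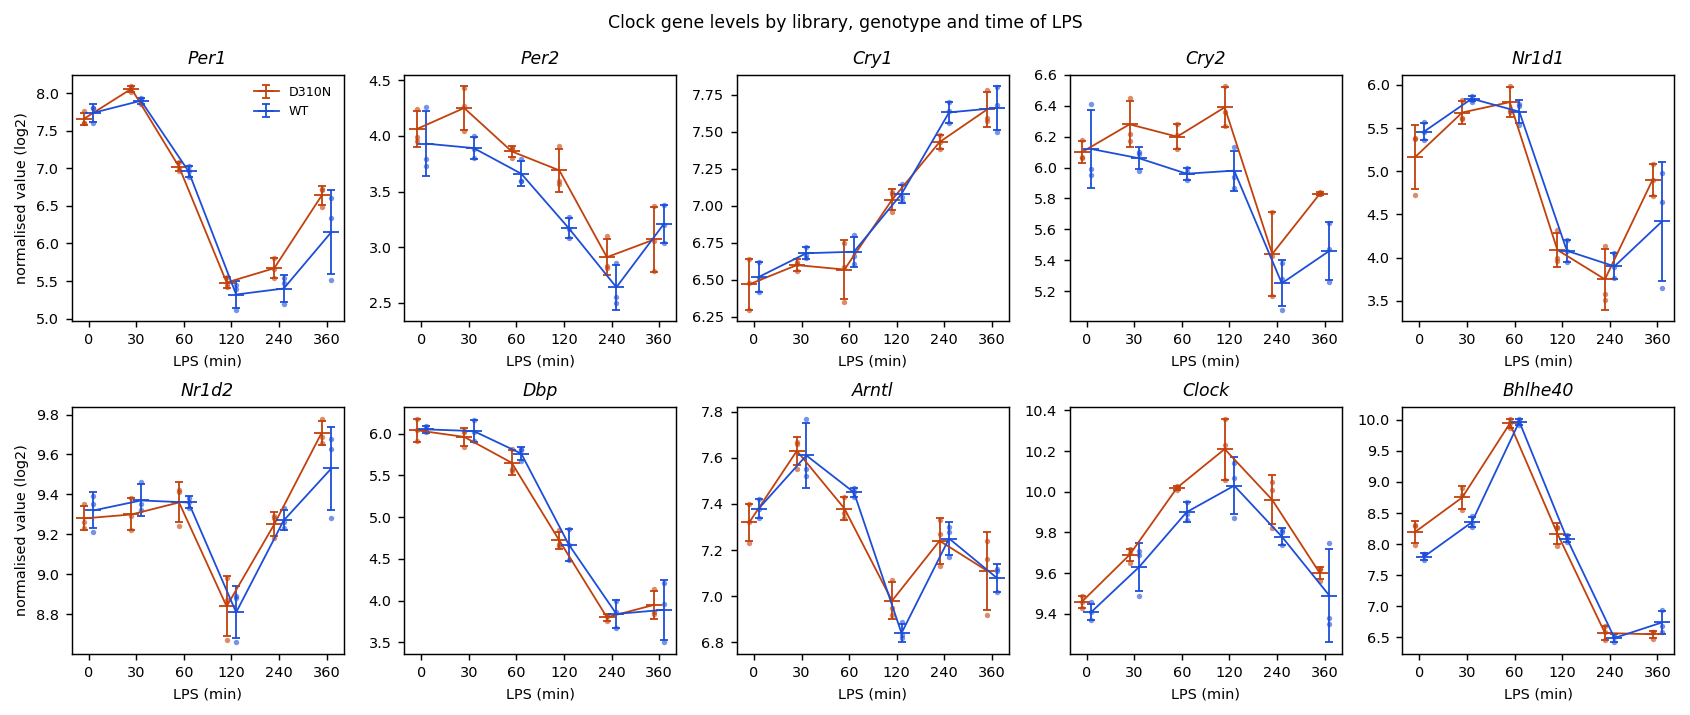
Normalised log2 value (vertical axis, scaled for each gene) of the 10 clock genes at 6 times of LPS (horizontal axis, min, evenly spaced), D310N in orange and WT in blue. Points are libraries, lines join group means, and bars are the SD of 3 libraries; Per1 in D310N is near 8.06 at 30 min and near 5.48 at 120 min, and the wide blue bars at 360 min in Per1 and Nr1d1 come from WT replicate 1.

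Per1 and Per2 encode the PER proteins of the repressing arm. Per1 lies at chr11:69095217-69109960 (plus strand, GRCm38) and is also known as a gene that answers quickly to outside signals. Its log2 values in the 3 libraries of each D310N group were 7.61, 7.76 and 7.61 (0 min), 8.08, 8.09 and 8.01 (30 min), 6.97, 7.08 and 7.00 (60 min), 5.46, 5.55 and 5.42 (120 min), 5.80, 5.66 and 5.54 (240 min), and 6.71, 6.72 and 6.49 (360 min). The WT libraries gave 7.81, 7.61 and 7.81 (0 min), 7.91, 7.86 and 7.93 (30 min), 6.89, 7.03 and 6.96 (60 min), 5.12, 5.45 and 5.40 (120 min), 5.47, 5.20 and 5.54 (240 min), and 5.52, 6.34 and 6.60 (360 min). In both genotypes Per1 was highest at 30 min, with the libraries of that time above all others of the genotype, and its group means were lowest at 120 and 240 min. The difference of 30 from 0 min did not pass the test: it was 0.40 ± 0.15 (log2 difference ± SE) in D310N (adjusted p = 0.126) and 0.16 ± 0.15 in WT (adjusted p = 0.671). By 60 min Per1 had fallen by 0.64 in D310N and by 0.78 in WT. At 120 min it was 4.53-fold lower than at 0 min in D310N (-2.18 ± 0.15, adjusted p = 3.36e-14) and 5.37-fold lower in WT (-2.42 ± 0.15, adjusted p = 2.21e-15). At 360 min it had recovered in part, to 2.03-fold below 0 min in D310N and 3.01-fold below it in WT, and the WT value rests on widely spread libraries of 5.52, 6.34 and 6.60. Without the lowest of these, replicate 1, the WT change was -1.27 in place of -1.59. Leaving out that library also brought the 30 min difference of D310N past the threshold (0.40, adjusted p = 0.00381), since all groups share 1 estimate of the spread.

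Per2 (chr1:91415982-91459324, minus strand) was close to the filter minimum of 3.32, and its changes may be understated if the unnamed transformation of the deposited values draws low values together. The D310N libraries read 3.99, 3.95 and 4.24 (0 min), 4.04, 4.27 and 4.43 (30 min), 3.89, 3.80 and 3.89 (60 min), 3.59, 3.91 and 3.57 (120 min), 3.10, 2.83 and 2.81 (240 min), and 3.37, 2.79 and 3.06 (360 min). In WT they read 3.73, 3.79 and 4.26 (0 min), 3.88, 3.80 and 4.0 (30 min), 3.59, 3.59 and 3.79 (60 min), 3.27, 3.08 and 3.16 (120 min), 2.86, 2.5 and 2.55 (240 min), and 3.04, 3.38 and 3.20 (360 min). In each genotype the libraries of 240 min were all below those of 0, 30, 60 and 120 min. Per2 was 2.22-fold lower at 240 min than at 0 min in D310N (-1.15 ± 0.16, adjusted p = 8.96e-08) and 2.44-fold lower in WT (-1.29 ± 0.16, adjusted p = 8.78e-09). At 120 min the change was -0.37 ± 0.16 in D310N (adjusted p = 0.041) and -0.76 ± 0.16 in WT (adjusted p = 9.11e-05). The D310N call at 120 min was lost without replicate 1 or 3 of either group, with adjusted p between 0.0514 and 0.175, and it was lost under quantile normalization (-0.27, adjusted p = 0.166). At 360 min Per2 remained 1.98-fold below 0 min in D310N and 1.64-fold below it in WT.

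Cry1 and Cry2 encode the cryptochromes, the partners of PER in repression, and they moved in opposite directions. Cry1 (chr10:85131700-85185064, minus strand) had log2 values of 6.64, 6.30 and 6.48 (0 min), 6.62, 6.56 and 6.61 (30 min), 6.75, 6.35 and 6.59 (60 min), 7.09, 7.08 and 6.96 (120 min), 7.38, 7.43 and 7.48 (240 min), and 7.59, 7.78 and 7.57 (360 min) in D310N. WT macrophages had 6.62, 6.42 and 6.51 (0 min), 6.67, 6.72 and 6.65 (30 min), 6.61, 6.80 and 6.66 (60 min), 7.15, 7.06 and 7.03 (120 min), 7.64, 7.56 and 7.70 (240 min), and 7.50, 7.68 and 7.80 (360 min). Cry1 climbed in steps: its libraries at 120 min lay above all of those at 0, 30 and 60 min, and its libraries at 240 and 360 min lay above all of those at 120 min, in both genotypes. At 360 min it was 2.26-fold higher than at 0 min in D310N (1.17 ± 0.09, adjusted p = 3.08e-13) and 2.21-fold higher in WT (1.14 ± 0.09, adjusted p = 5.48e-13). It had already risen by 0.57 in D310N and 0.56 in WT at 120 min, and neither 30 nor 60 min passed the test in either genotype.

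Cry2 (chr2:92403646-92434043, minus strand) was lower at 240 and 360 min than at earlier times. Its libraries read 6.18, 6.07 and 6.06 (0 min), 6.17, 6.22 and 6.45 (30 min), 6.21, 6.28 and 6.12 (60 min), 6.27, 6.53 and 6.36 (120 min), 5.71, 5.17 and 5.43 (240 min), and 5.84, 5.83 and 5.83 (360 min) in D310N macrophages. They read 5.99, 5.95 and 6.41 (0 min), 5.98, 6.10 and 6.09 (30 min), 5.92, 6.0 and 5.97 (60 min), 5.94, 5.87 and 6.13 (120 min), 5.28, 5.38 and 5.08 (240 min), and 5.26, 5.47 and 5.64 (360 min) in WT macrophages. At 240 min it was 1.59-fold lower than at 0 min in D310N (-0.67 ± 0.12, adjusted p = 1.13e-05) and 1.82-fold lower in WT (-0.87 ± 0.12, adjusted p = 1.36e-07). At 360 min the change was -0.66 ± 0.12 in WT (adjusted p = 1.21e-05). In D310N it was -0.27 ± 0.12 (adjusted p = 0.0436), and this call was lost when any of the 6 libraries was left out (adjusted p between 0.0574 and 0.126) and turned in sign under quantile normalization (0.13, adjusted p = 0.353). A small rise at 120 min passed in D310N (0.29 ± 0.12, adjusted p = 0.0398), while WT was at -0.14 ± 0.12 (adjusted p = 0.326). The D310N rise was lost without replicate 2 or 3 of either time, with adjusted p between 0.062 and 0.167. A transcript of unknown coding role, D930015M05Rik, shares 295 exon bases with Cry2 on the other strand. The use of strand in the counting is not given in the sources used here, so reads from the shared bases cannot be told apart. D930015M05Rik was at a log2 value of at most -1.59 in any library, and its part in the Cry2 values was not tested.

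Nr1d1 and Nr1d2 encode the REV-ERB receptors, which bind heme and repress Arntl. Nr1d1 (chr11:98767932-98775333, minus strand) had a Pearson correlation of 0.91 with Per1 over their 12 group means, a description of groups that share libraries. They parted at 60 min, when Per1 was at -0.64 in D310N and -0.78 in WT from 0 min, and Nr1d1 at 0.64 in D310N and 0.23 in WT. D310N libraries had Nr1d1 at 4.73, 5.37 and 5.38 (0 min), 5.62, 5.83 and 5.60 (30 min), 5.99, 5.69 and 5.71 (60 min), 4.0, 4.32 and 3.96 (120 min), 3.58, 4.14 and 3.51 (240 min), and 4.90, 5.09 and 4.71 (360 min). WT libraries had it at 5.57, 5.36 and 5.46 (0 min), 5.80, 5.87 and 5.83 (30 min), 5.54, 5.78 and 5.76 (60 min), 4.08, 3.95 and 4.21 (120 min), 3.89, 4.05 and 3.76 (240 min), and 3.65, 4.64 and 4.98 (360 min). The libraries of 120 and 240 min lay below all unstimulated ones in both genotypes, and those of 30 min lay above them. Nr1d1 was 2.66-fold lower at 240 min than at 0 min in D310N (-1.41 ± 0.21, adjusted p = 4.92e-07) and 2.95-fold lower in WT (-1.56 ± 0.21, adjusted p = 7.39e-08). Some of its 240 min values were close to the filter minimum of 3.32, so the limit given for Per2 applies to them. An early rise of Nr1d1 passed only at 60 min in D310N (0.64 ± 0.21, adjusted p = 0.0162), against 0.23 ± 0.21 in WT (adjusted p = 0.439). It was lost without replicate 1 of 0 min (0.42, adjusted p = 0.156) or of 60 min (0.54, adjusted p = 0.0764), and the difference between the genotypes in the whole time course did not pass (joint test, adjusted p = 0.552). At 30 min the D310N difference was 0.53 ± 0.21 (adjusted p = 0.175), and it passed without WT replicate 1 of 360 min (adjusted p = 0.0293). At 360 min Nr1d1 differed from 0 min by -0.26 ± 0.21 in D310N (adjusted p = 0.264), and it was 2.06-fold lower in WT (-1.04 ± 0.21, adjusted p = 5.07e-05). Without WT replicate 1, whose Nr1d1 value of 3.65 stands beside 4.64 and 4.98, the WT change was -0.65 (adjusted p = 0.0013). Nr1d1 shares 263 exon bases with Thra, the thyroid hormone receptor gene on the other strand. Thra was -0.14 ± 0.09 in D310N and -0.19 ± 0.09 in WT at 120 min, neither past the threshold, at a time when the Nr1d1 difference was -1.06 in D310N and -1.38 in WT. Thra was lower at 240 min (-0.71 ± 0.09 in D310N and -0.84 ± 0.09 in WT) and at 360 min (-0.88 ± 0.09 in D310N and -0.86 ± 0.09 in WT), so it moved the same way as Nr1d1 at 240 min, and its part in the Nr1d1 values was not tested.

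Nr1d2 (chr14:18204054-18239127, minus strand) dipped once and came back. In D310N its values were 9.23, 9.35 and 9.26 (0 min), 9.22, 9.38 and 9.29 (30 min), 9.24, 9.41 and 9.42 (60 min), 8.67, 8.87 and 8.98 (120 min), 9.28, 9.29 and 9.18 (240 min), and 9.66, 9.78 and 9.69 (360 min). In WT its values were 9.21, 9.35 and 9.39 (0 min), 9.46, 9.35 and 9.32 (30 min), 9.36, 9.33 and 9.38 (60 min), 8.89, 8.88 and 8.66 (120 min), 9.33, 9.23 and 9.26 (240 min), and 9.28, 9.63 and 9.68 (360 min). The 3 libraries of 120 min were the lowest of each genotype. The dip was -0.44 ± 0.08 in D310N (adjusted p = 2.04e-05) and -0.51 ± 0.08 in WT (adjusted p = 2.29e-06), and at 240 min the difference from 0 min was -0.03 in D310N and -0.05 in WT. Under quantile normalization that 240 min difference was -0.17 in each and passed (adjusted p = 0.0397 in D310N and 0.048 in WT). At 360 min Nr1d2 was 1.34-fold above 0 min in D310N (0.43 ± 0.08, adjusted p = 2.06e-05) with all libraries above. In WT it was 0.21 ± 0.08 (adjusted p = 0.0177) with overlapping libraries. That WT call was lost without replicate 2 or 3 of 360 min or replicate 1 of 0 min, with adjusted p between 0.0948 and 0.142, and under quantile normalization (0.07, adjusted p = 0.418).

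Dbp (chr7:45705088-45710203, plus strand) encodes an activator that binds D-boxes and is among the most strongly cycling outputs of the clock in liver and other tissues. The D310N libraries had 5.91, 6.18 and 6.04 (0 min), 5.84, 6.02 and 6.03 (30 min), 5.55, 5.82 and 5.57 (60 min), 4.68, 4.65 and 4.84 (120 min), 3.75, 3.82 and 3.82 (240 min), and 4.14, 3.84 and 3.86 (360 min). The WT libraries had 6.05, 6.02 and 6.09 (0 min), 5.91, 6.16 and 6.02 (30 min), 5.82, 5.67 and 5.80 (60 min), 4.49, 4.66 and 4.86 (120 min), 3.86, 4.0 and 3.67 (240 min), and 3.96, 4.21 and 3.50 (360 min). The decline was stepwise in both genotypes. Libraries at 60 min lay below all unstimulated ones, those at 120 min below all at 60 min, and those at 240 and 360 min below all at 120 min. At 240 min Dbp was 4.74-fold lower than at 0 min in D310N (-2.25 ± 0.13, adjusted p = 4.33e-16) and 4.63-fold lower in WT (-2.21 ± 0.13, adjusted p = 5.94e-16). Unlike Per1, it had recovered little at 360 min, with a 4.27-fold lower level in D310N and a 4.48-fold lower level in WT than at 0 min. The D310N libraries of 360 min lay above those of 240 min, by 0.15 in the means, and in WT they overlapped. These late values were close to the filter minimum of 3.32, so the limit given for Per2 applies to them. The small decrease at 60 min passed in D310N (-0.40 ± 0.13, adjusted p = 0.0174) and not in WT (-0.29 ± 0.13, adjusted p = 0.0851). The D310N call was lost without replicate 2 of 0 min or replicate 1 or 3 of 60 min (adjusted p between 0.0672 and 0.0916), and WT passed without its replicate 3 of 360 min (adjusted p = 0.0416). Dbp shares 539 exon bases with Sphk2 on the other strand, a sphingosine kinase gene. Sphk2 fell too at 60, 120 and 240 min, by 0.30, 0.57 and 0.52 in D310N and by 0.40, 0.63 and 0.50 in WT. At 360 min it was 0.24 ± 0.10 above 0 min in D310N (adjusted p = 0.0325) and at 0.04 ± 0.10 in WT (adjusted p = 0.736), when Dbp was at -2.10 ± 0.13 in D310N and -2.16 ± 0.13 in WT. The part of Sphk2 in the Dbp values was not tested.

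Arntl and Clock encode the activating pair, and their RNAs took different courses. Arntl (chr7:113207465-113314126, plus strand) stayed within a narrow band. Its D310N libraries read 7.40, 7.32 and 7.23 (0 min), 7.66, 7.67 and 7.55 (30 min), 7.36, 7.34 and 7.43 (60 min), 6.95, 6.92 and 7.07 (120 min), 7.27, 7.33 and 7.13 (240 min), and 7.24, 6.92 and 7.16 (360 min). Its WT libraries read 7.38, 7.34 and 7.42 (0 min), 7.52, 7.77 and 7.55 (30 min), 7.43, 7.45 and 7.47 (60 min), 6.83, 6.89 and 6.82 (120 min), 7.28, 7.17 and 7.30 (240 min), and 7.02, 7.11 and 7.12 (360 min). The highest libraries were those of 30 min and the lowest of WT those of 120 min. Arntl was 1.26-fold lower at 120 min than at 0 min in D310N (-0.34 ± 0.07, adjusted p = 0.000209) and 1.45-fold lower in WT (-0.53 ± 0.07, adjusted p = 1.94e-07). At 30 min it was 1.24-fold higher in D310N (0.31 ± 0.07, adjusted p = 0.00604), a call lost without D310N replicate 3 of 0 min (0.27, adjusted p = 0.058). The WT value at 30 min was 0.23 ± 0.07 (adjusted p = 0.0583), which passed when WT replicate 1 of 30 min (0.28, adjusted p = 0.0441), WT replicate 1 of 360 min (adjusted p = 0.0402) or D310N replicate 1 or 2 of 360 min (adjusted p = 0.0461 and 0.0311) was left out. At 360 min the change was -0.21 ± 0.07 in D310N (adjusted p = 0.0107) and -0.30 ± 0.07 in WT (adjusted p = 0.000616), and under quantile normalization neither was lower (0.05 in D310N, 0.00 in WT). The D310N call was also lost without replicate 1 of 0 min (adjusted p = 0.0602) or replicate 2 of 360 min (adjusted p = 0.148). An antisense transcript, Gm45355, shares 33 exon bases with Arntl on the other strand. It was not among the genes with deposited values, and its part in the Arntl values was not tested.

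Clock (chr5:76209868-76304792, minus strand) rose and returned. Values in D310N macrophages were 9.46, 9.43 and 9.49 (0 min), 9.65, 9.70 and 9.72 (30 min), 10.01, 10.03 and 10.02 (60 min), 10.06, 10.23 and 10.36 (120 min), 10.05, 9.82 and 10.01 (240 min), and 9.62, 9.56 and 9.62 (360 min). Values in WT macrophages were 9.37, 9.46 and 9.41 (0 min), 9.69, 9.49 and 9.71 (30 min), 9.86, 9.89 and 9.95 (60 min), 10.14, 10.07 and 9.87 (120 min), 9.80, 9.74 and 9.81 (240 min), and 9.75, 9.35 and 9.38 (360 min). All libraries of 60, 120 and 240 min lay above all unstimulated ones of their genotype. At 120 min Clock was 1.68-fold higher than at 0 min in D310N (0.75 ± 0.08, adjusted p = 1.15e-09) and 1.53-fold higher in WT (0.62 ± 0.08, adjusted p = 5.95e-08). At 360 min the difference was 0.14 ± 0.08 in D310N (adjusted p = 0.116) and 0.08 ± 0.08 in WT (adjusted p = 0.375). Without WT replicate 1 of 360 min, the D310N change at 360 min passed (adjusted p = 0.0492), as did those at 30 min in D310N (0.23, adjusted p = 0.0174) and in WT (0.22, adjusted p = 0.0282). The WT change at 30 min also passed without WT replicate 2 of 30 min (0.28, adjusted p = 0.0468).

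Bhlhe40 (chr6:108660629-108666925, plus strand) had the strongest early rise of the 10 genes and then fell below its starting level. D310N libraries held Bhlhe40 at 8.29, 7.98 and 8.30 (0 min), 8.79, 8.55 and 8.91 (30 min), 9.86, 10.02 and 9.95 (60 min), 7.97, 8.26 and 8.28 (120 min), 6.45, 6.69 and 6.58 (240 min), and 6.59, 6.58 and 6.48 (360 min). WT libraries held it at 7.74, 7.84 and 7.84 (0 min), 8.45, 8.34 and 8.28 (30 min), 10.01, 9.97 and 9.92 (60 min), 8.03, 8.15 and 8.10 (120 min), 6.42, 6.51 and 6.53 (240 min), and 6.58, 6.94 and 6.69 (360 min). In each genotype the 60 min libraries were the highest and the 30 min libraries the next highest, and the libraries of 240 and 360 min lay below all others. At 60 min it was 3.37-fold higher than at 0 min in D310N (1.75 ± 0.09, adjusted p = 2.5e-16) and 4.48-fold higher in WT (2.16 ± 0.09, adjusted p = 9.85e-19). At 120 min the difference from 0 min was -0.02 ± 0.09 in D310N (adjusted p = 0.848), with overlapping libraries. WT was still higher than at 0 min, by 0.29 ± 0.09 without overlap (adjusted p = 0.00829). At 360 min Bhlhe40 was 3.12-fold lower than at 0 min in D310N (-1.64 ± 0.09, adjusted p = 2.12e-16) and 2.1-fold lower in WT (-1.07 ± 0.09, adjusted p = 8.22e-12). A non-coding transcript on the other strand, 0610040F04Rik, shares 118 exon bases with Bhlhe40. It was at a log2 value of at most -3.93 in any library, and its part in the Bhlhe40 values was not tested.

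**Figure D2:**
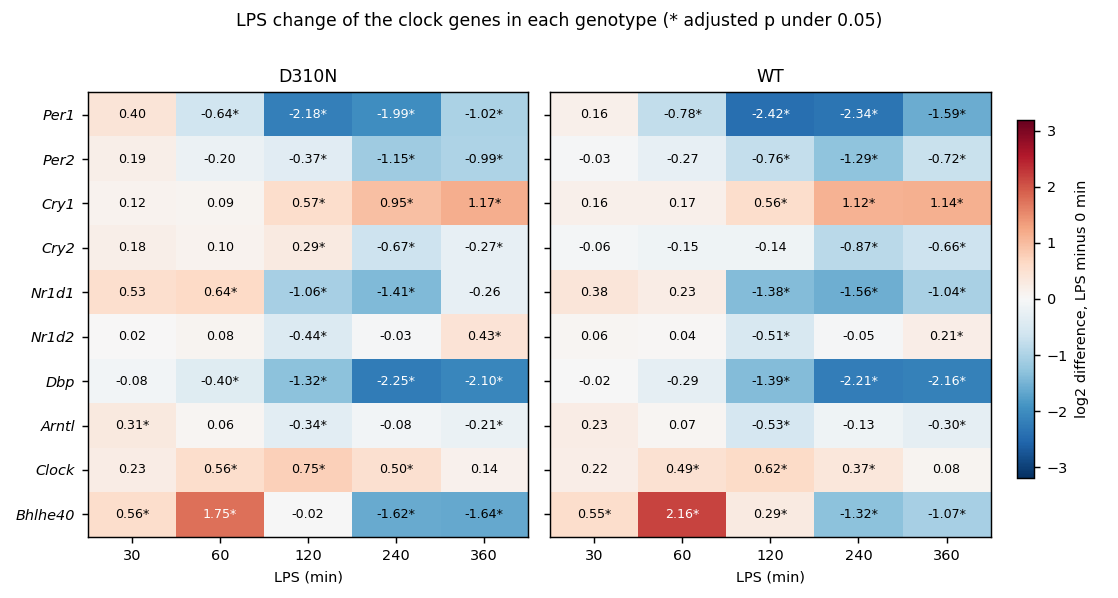
Log2 difference of each LPS time (columns, min) from 0 min for the 10 clock genes (rows), D310N on the left and WT on the right, with red for higher and blue for lower than at 0 min and an asterisk where the limma adjusted p is under 0.05. Per1 and Dbp hold the deepest blue, at -2.18 and -2.25 in D310N and -2.42 and -2.21 in WT, while Cry1 and Clock are red and Bhlhe40 goes through red at 60 min to blue from 240 min on.

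The second question was whether the levels of these genes differed between D310N and WT macrophages. Genotype goes with anything else that differed between the mice or cultures, which the labels do not describe. The D310N change therefore cannot be told apart from such differences. Few of them differed between the genotypes at any time, and those that passed were higher in D310N. At 0 min 1 of 10 passed, Bhlhe40, where 10.7% of all tested genes passed in either direction. At 30 min it was again Bhlhe40 alone (12.2% of all genes). At 60 min limma called 0 of 10 (12.9% of all genes), with 0 at an unadjusted p under 0.05, and 1 when the fit used only the libraries of that time. At 120 min Per2 and Cry2 passed (17.7% of all genes). At 240 min limma called 0 of 10 (17%), with 2 at an unadjusted p under 0.05, and 1 in the fit of that time alone. At 360 min Per1 and Cry2 passed (16.3%). On average over the 6 times, 5 of 10 passed, where 48.1% of all tested genes did. These shares lie near those of all genes, which count either direction and so do not weigh the direction of the clock genes. Under quantile normalization, 3200 of all tested genes were higher and 2556 lower in D310N on average. At each single time more of them were lower than higher, for example 619 higher and 864 lower at 0 min. That normalization moved the median average difference of all genes from -0.00 to 0.02. The split of all genes in the values as deposited is not given here.

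Bhlhe40 at 0 min read 8.29, 7.98 and 8.30 in D310N, against 7.74, 7.84 and 7.84 in WT. The D310N libraries were all higher, by 1.31-fold (0.39 ± 0.09, adjusted p = 0.00575). At 30 min it read 8.79, 8.55 and 8.91 in D310N, against 8.45, 8.34 and 8.28 in WT, again without overlap and 1.32-fold higher (0.40 ± 0.09, adjusted p = 0.00421). From 60 min on the libraries of the genotypes overlapped, with differences of -0.03, 0.08, 0.09 and -0.19 at 60, 120, 240 and 360 min, none past the threshold. The call at 0 min was lost without D310N replicate 1 (0.34, adjusted p = 0.054) or replicate 3 (0.33, adjusted p = 0.0547), and that at 30 min without D310N replicate 3 (0.32, adjusted p = 0.0551). The summed neutrophil markers moved with genotype as well, at 4.41 to 4.63 in D310N and 4.28 to 4.36 in WT at 0 min. At 360 min they were 4.46 to 4.77 in D310N and 4.18 to 4.30 in WT. At 30 min the neutrophil sums of the genotypes overlapped, at 4.31 to 4.72 in D310N and 4.14 to 4.34 in WT. They overlapped at 120 min as well, and not at 60 or 240 min. Only S100a8 and S100a9 of the 7 passed the filter, with Ly6g at most -3.09 and Elane at most -3.81, and the part of these markers in the genotype differences was not tested. The summed macrophage markers at 30 min were lower in D310N without overlap, at 17.74 to 17.84 in D310N and 17.87 in WT. At 0 min they overlapped, and their part was not tested either.

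Per2 at 120 min had values of 3.59, 3.91 and 3.57 in D310N, against 3.27, 3.08 and 3.16 in WT. The libraries did not overlap, and D310N was 1.44-fold higher (0.52 ± 0.16, adjusted p = 0.0189). The call was lost without replicate 2 of D310N (0.41, adjusted p = 0.104) or of WT (0.48, adjusted p = 0.0716), and in the fit of that time alone (adjusted p = 0.0606). Cry2 at 120 min had values of 6.27, 6.53 and 6.36 in D310N, against 5.94, 5.87 and 6.13 in WT. D310N was 1.33-fold higher without overlap (0.41 ± 0.12, adjusted p = 0.0176), and the call was lost without D310N replicate 2 (0.34, adjusted p = 0.0865), WT replicate 1 (0.39, adjusted p = 0.0606) or WT replicate 2 (0.36, adjusted p = 0.084). At this time the summed dendritic cell markers were 6.40 to 6.54 in D310N and 6.11 to 6.16 in WT, and the summed macrophage markers 17.86 to 17.95 in D310N and 17.97 to 18.04 in WT. The part of either in the differences at 120 min was not tested.

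Per1 at 360 min was 1.4-fold higher in D310N (0.48 ± 0.15, adjusted p = 0.0239), with 6.71, 6.72 and 6.49 in D310N, against 5.52, 6.34 and 6.60 in WT. The libraries overlapped. Without the WT library at 5.52, replicate 1, the difference was 0.17 (adjusted p = 0.281). The call was also lost without D310N replicate 1 (adjusted p = 0.0901) or 2 (adjusted p = 0.0715), and in the fit of that time alone (adjusted p = 0.452). Cry2 at 360 min had 5.84, 5.83 and 5.83 in D310N, against 5.26, 5.47 and 5.64 in WT, a 1.3-fold higher level in D310N (0.38 ± 0.12, adjusted p = 0.0316). Leaving out WT replicate 1 gave 0.28 (adjusted p = 0.138). Leaving out any D310N library of that time also lost the call, with adjusted p between 0.0628 and 0.0846. Nr1d1 differed by as much as Per1 at 360 min (0.48 ± 0.21, adjusted p = 0.121) but did not pass. Without WT replicate 1, the library that stands apart, the Nr1d1 difference was 0.09 (adjusted p = 0.767), and without WT replicate 3 it was 0.76 and passed (adjusted p = 0.0114). Nr1d2 was at 0.18 ± 0.08 (adjusted p = 0.135), at 0.05 without WT replicate 1 (adjusted p = 0.67) and at 0.25 without WT replicate 3 (adjusted p = 0.0421).

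On average over the 6 times, Cry2 was 0.24 ± 0.05 higher in D310N (adjusted p = 0.000211), with D310N above WT in the group means of every LPS time. Per2 was 0.23 ± 0.06 higher (adjusted p = 0.00428), Per1 0.17 ± 0.06 (adjusted p = 0.0189), Clock 0.12 ± 0.03 (adjusted p = 0.00366) and Bhlhe40 0.12 ± 0.04 (adjusted p = 0.00954). With each replicate number averaged over the times, so that 3 values stood against 3, Per1 no longer passed (adjusted p = 0.0702). Clock was higher in D310N by 0.05 to 0.19 at the 6 times and passed at none of them in the fit of all libraries. Without WT replicate 1 of 360 min it passed at 120, 240 and 360 min (0.19, 0.18 and 0.24, adjusted p = 0.0313, 0.0434 and 0.0187), as did Per1 at 240 min (0.26, adjusted p = 0.0385). Clock also passed at 120 min without D310N replicate 1 (0.27, adjusted p = 0.0359) and at 240 min without D310N replicate 2 (0.25, adjusted p = 0.0492). Clock lies on chromosome 5, as does the mutated gene Tnip2 (chr5:34496087-34513991, minus strand). The part of this shared chromosome in the Clock difference was not tested. Cry1 was the gene nearest to a lower level in D310N, at -0.08 ± 0.04 (adjusted p = 0.0601), and it passed without WT replicate 1 of 360 min (-0.10, adjusted p = 0.022). It passed as well without WT replicate 2 of 0 min, D310N replicate 1 of 0 min, D310N replicate 1 of 60 min or D310N replicate 2 of 360 min, with adjusted p between 0.0223 and 0.0441. Nr1d1, Nr1d2, Dbp and Arntl averaged -0.00, 0.01, -0.02 and 0.00.

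**Figure D3:**
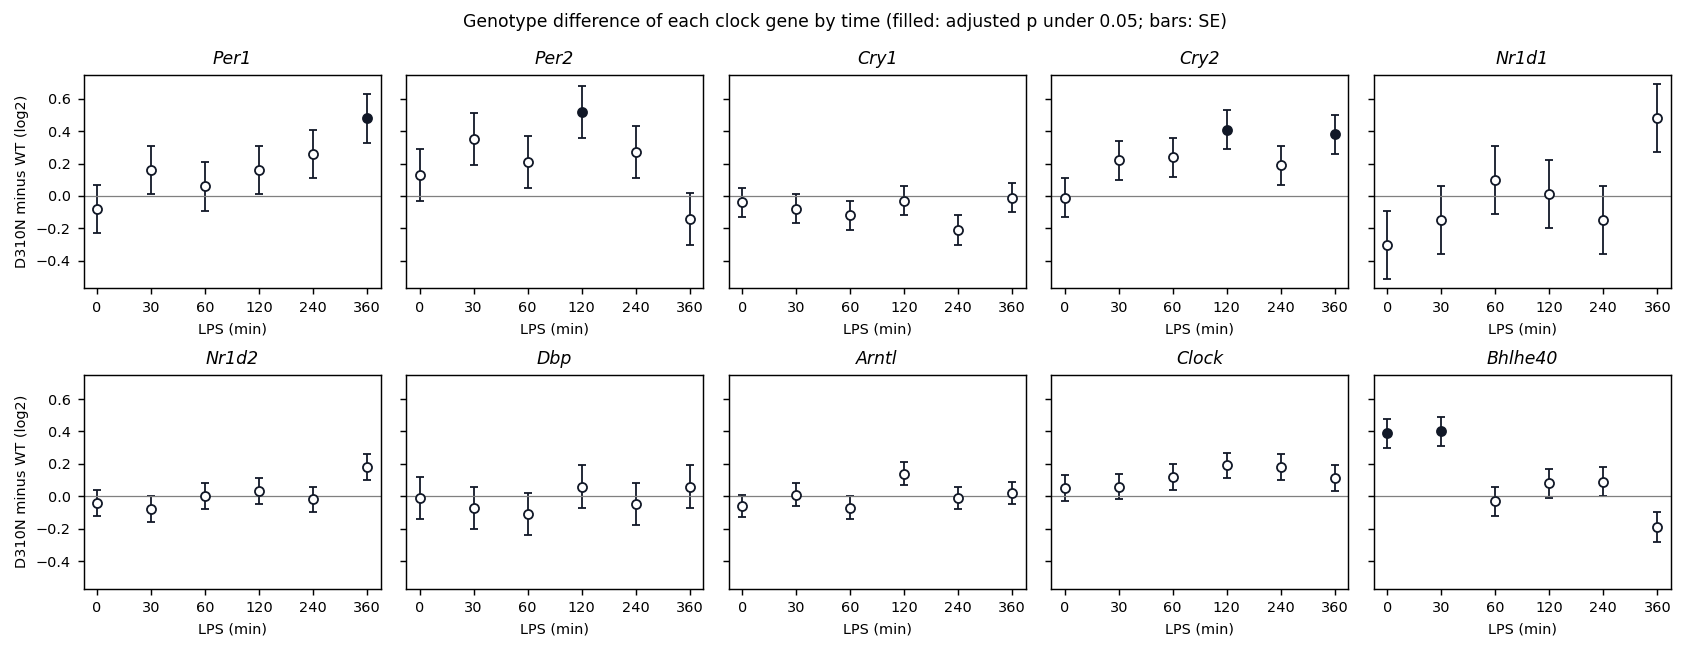
Log2 difference of D310N minus WT (vertical axis, 1 scale for all genes) at each time of LPS (horizontal axis, min, evenly spaced) for the 10 clock genes, with the SE from limma as bars and filled points where the adjusted p is under 0.05. Bhlhe40 is filled at 0 and 30 min at 0.39 and 0.40, Per2 and Cry2 at 120 min at 0.52 and 0.41, and Per1 and Cry2 at 360 min at 0.48 and 0.38.

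The time courses themselves were compared by a joint F test of the 5 LPS responses between the genotypes, which 4.84% of all tested genes passed. Bhlhe40 was the only clock gene among them (F = 5.94, adjusted p = 0.021). Its LPS response in D310N minus that in WT was 0.01 ± 0.13 at 30 min, -0.41 ± 0.13 at 60 min, -0.31 ± 0.13 at 120 min, -0.30 ± 0.13 at 240 min and -0.57 ± 0.13 at 360 min. Taken singly in limma, only the difference at 360 min passed (adjusted p = 0.0198). Those at 30, 60, 120 (adjusted p = 0.472) and 240 min (adjusted p = 0.287) did not. These values rest on the unstimulated libraries, where D310N was higher by 0.39, as well as on those under LPS. Without D310N replicate 3 of 360 min the joint test gave an adjusted p of 0.0501, and without WT replicate 1 of 360 min 0.00362. The other 9 clock genes had adjusted p from 0.45 (Per2) to 0.989 (Dbp). For these, a difference in time course was not shown, which is not evidence that the courses are the same.

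The clock genes also varied together across the 12 groups, as a description of group means that share libraries and normalisation. Dbp and Cry1 ran opposite to each other (Pearson r = -0.97, n = 12 groups), as did Per2 and Cry1 (r = -0.90). Per2 and Dbp ran together (r = 0.92). Nr1d2 and Per2 showed no such tie (r = -0.04), nor did Clock and Cry1 (r = 0.07). Among all tested genes, the group means most like those of Per1 were those of Dnmt3a (r = 0.994) and Pbx2 (r = 0.991). Per2 was closest to Mras (r = 0.983) and Deb1 (r = 0.975). Cry1 was closest to Pnp and Pitrm1 (each r = 0.993), and Cry2 to Brwd1 (r = 0.962) and Nfatc2 (r = 0.960). Nr1d1 was closest to Pik3c2a (r = 0.978) and Elmsan1 (r = 0.977), and Nr1d2 to Ncoa1 (r = 0.974) and Btrc (r = 0.971). Dbp was closest to Samd1 (r = 0.998) and Msh6 (r = 0.997), Arntl to Ubr1 (r = 0.954) and Cnnm4 (r = 0.950), Clock to Fam91a1 (r = 0.975) and Pik3ca (r = 0.968), and Bhlhe40 to Senp2 (r = 0.982) and Spred2 (r = 0.974).

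A wider list of 29 clock-linked genes, which are partners, kinases, ligases and outputs of the same loop, was read in the same fit. Of these, 27 were in the table and 25 passed the filter on low values. In D310N macrophages 3 of the 25 passed at 30 min, all as higher. At 60, 120, 240 and 360 min 9, 7, 10 and 9 were higher, while 4, 16, 12 and 11 were lower. Over all tested genes 5.16% were higher at 30 min, and at the later times 21.3%, 31.9%, 39% and 39% were higher and 17.2%, 32.1%, 40.2% and 41% lower. In WT macrophages 3 passed at 30 min, all as higher, and at the later times 7, 7, 7 and 8 were higher, while 5, 16, 13 and 12 were lower. The shares of all tested genes in WT were 4.79% higher at 30 min, and afterwards 20.1%, 32.4%, 39.6% and 39.3% higher and 17.1%, 34.2%, 40.4% and 41% lower. Their median change without its sign at 240 min was 0.73 in D310N and 0.77 in WT, against 0.47 in D310N and 0.50 in WT over all tested genes.

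The 8 genes of this list with the largest called change in WT were Bhlhe41, Npas2, Klf10, Tef, Usp2, Rora, Nfil3 and Klf9. Bhlhe41 (also called DEC2), the close relative of Bhlhe40, had no early rise. Its mean was 9.39 ± 0.03, 9.36 ± 0.04, 8.68 ± 0.06, 7.79 ± 0.05, 6.34 ± 0.14 and 6.98 ± 0.04 (SD, n = 3) at 0, 30, 60, 120, 240 and 360 min in D310N. In WT it was 9.40 ± 0.13, 9.29 ± 0.07, 8.71 ± 0.05, 7.59 ± 0.04, 6.28 ± 0.13 and 6.85 ± 0.33. Its difference at 240 min was -3.05 in D310N and -3.11 in WT (adjusted p = 3.02e-23 and 1.62e-23). Npas2, which can stand in for CLOCK as the partner of BMAL1, moved against Clock at 240 min. Its difference was -2.38 ± 0.19 in D310N and -2.40 ± 0.19 in WT, while Clock was higher by 0.50 in D310N and 0.37 in WT.

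Tef, a relative of Dbp that binds the same D-boxes, fell with it, and Nfil3, which represses at those sites, rose. Tef was at -1.75 ± 0.09 in D310N and -1.94 ± 0.09 in WT at 240 min. Nfil3 was at 1.52 ± 0.12 in D310N and 1.51 ± 0.12 in WT at 360 min. Rora, which encodes an activator that reads the same AGGTCA element as the NR1D receptors, was at -1.51 ± 0.10 in D310N and -1.55 ± 0.10 in WT at 240 min. Usp2, a deubiquitinase gene with a known daily rhythm, was lowest at 120 min, at -2.07 ± 0.19 in D310N and -1.65 ± 0.19 in WT. Klf9 and Klf10 encode Kruppel-like factors with daily rhythms in several tissues. Klf9 was at -1.81 ± 0.12 in D310N and -1.49 ± 0.12 in WT at 360 min, and Klf10 at -1.74 ± 0.10 in D310N and -1.99 ± 0.10 in WT at 240 min. Klf10 was already lower at 120 min, at -0.66 ± 0.10 in D310N and -1.21 ± 0.10 in WT, after a rise at 60 min in D310N (0.37 ± 0.10, adjusted p = 0.00452).

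Between the genotypes, the average differences of Klf9 and Klf10 exceeded those of the 10 clock genes. Klf9 averaged 6.49 in D310N and 5.94 in WT over the 6 times (0.55 ± 0.05, adjusted p = 7.78e-11), and it passed at 0, 30, 60 and 120 min. Klf10 averaged 8.38 in D310N and 8.09 in WT (0.29 ± 0.04, adjusted p = 1.16e-06). Nfil3 was lower in D310N on average (8.22 in D310N and 8.37 in WT, -0.15 ± 0.05, adjusted p = 0.00991) and at 120 min (-0.45 ± 0.12, adjusted p = 0.00608). Ciart and Timeless, both named after their values were seen, also differed. Ciart, a repressor of CLOCK and BMAL1, was low (2.94 in D310N and 2.63 in WT on average, 0.32 ± 0.10, adjusted p = 0.0114), and at 360 min it was at 3.67 in D310N and 2.72 in WT (0.95 ± 0.25, adjusted p = 0.00954). Timeless was lower in D310N on average (-0.19 ± 0.03, adjusted p = 1.1e-05) and at 0, 30, 60 and 120 min. The WT group of 360 min, used for Ciart, holds replicate 1, the library that stands apart. Libraries were left out and other fits tried for the 10 clock genes only. The calls of the wider list were therefore not checked in that way. Over the 25 genes, 5 were higher and 4 lower in D310N on average, where 48.1% of all tested genes passed in either direction.

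**Figure D4:**
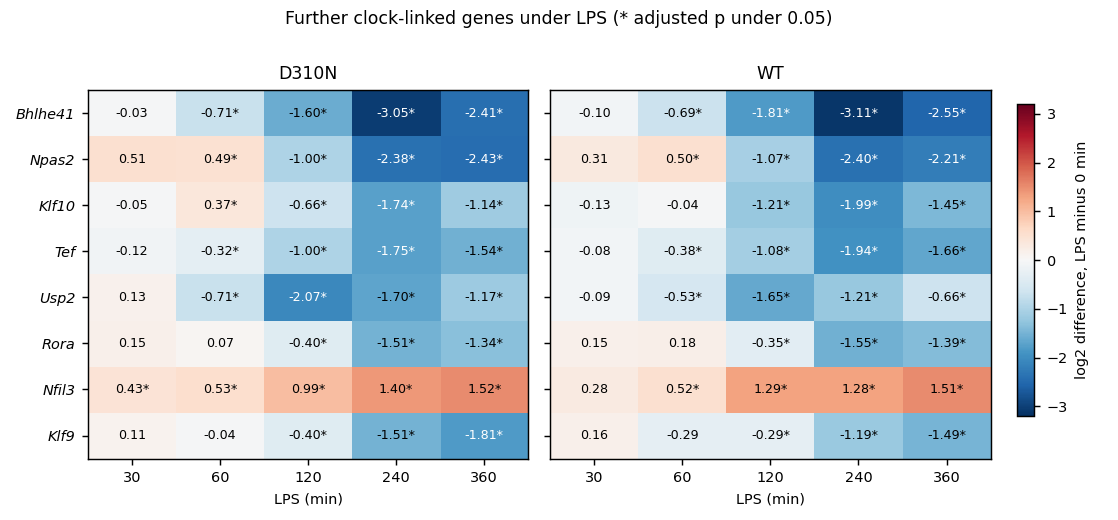
Log2 difference of each LPS time (columns, min) from 0 min for the 8 clock-linked genes with the largest called change in WT (rows), D310N on the left and WT on the right, with an asterisk where the limma adjusted p is under 0.05. Bhlhe41 reaches -3.05 in D310N and -3.11 in WT at 240 min, and Nfil3 is higher at each time that passed, reaching 1.52 in D310N and 1.51 in WT at 360 min.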

How the data were processed

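RNA was sequenced with single-end reads of 75 bases in 36 libraries of D310N and WT macrophages at 6 times of LPS, 3 libraries per group. Per the submitters' processing notes, the tools were STAR 2.5.2a, RSEM 1.2.31 and DESeq2 1.10.1 with the mm10 build. The table the authors deposited holds normalised log2 values for 16439 rows and no raw counts, so read depth and counting error are unknown. The transformation behind these log2 values is not given in the sources used here, and if it draws low values together, the differences of low genes would be too small. The table's header writes the mutation as D309N and the sample titles as D310N, and the name of the titles is used.

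Rows whose names had become calendar dates (23) were left out, and a gene was tested when it reached a log2 value of 3.32 (10 when back-transformed) in at least 3 libraries. limma 3.58.1 in R 4.3.3 was fitted to the log2 values of all 36 libraries with 1 mean per group (24 residual degrees of freedom), and the variance prior followed the mean level. Tests were two-sided. Benjamini-Hochberg adjusted p-values were taken over 11656 genes within each comparison, with calls under 0.05. The alternatives tried were no filter, a pseudocount of 8 on the linear values, quantile normalization, a fit of only the groups compared, a replicate block, leaving out each library, and averages of 3 against 3. Same-numbered libraries were checked for deviations that go together. All 3 correlations exceeded 0.1 for D310N at 120 min against 0 min (0.131 to 0.373). In the other D310N comparisons with 0 min all 3 were positive too (0.067 to 0.419 at 30 min, 0.037 to 0.405 at 60 min, 0.100 to 0.288 at 240 min and 0.089 to 0.249 at 360 min), a hint of pairing among D310N libraries that the labels do not state. WT showed no such pattern, and neither did the genotype comparisons. In each of these the lowest of the 3 was negative (for example -0.249 to 0.004 in WT at 30 min, and -0.254 to 0.003 between the genotypes at 120 min). The text names all 10 clock genes, the 8 most changed of a wider list, Tnip2, and for each clock gene the 2 genes with the most similar group means. Genes that share exon bases on the other strand (Thra, Sphk2 and non-coding transcripts) and marker genes were added after the values were seen. The clock genes, lists and tests were chosen with earlier results of these data known. Gene positions come from GENCODE mouse release M21.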

Additional observations from a re-analysis of the deposited data

Results flagged for a closer look

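Bhlhe40 was marked because its LPS time course differed between the genotypes in a test of the difference itself (joint F test over the 5 LPS responses in limma, adjusted p = 0.021). Its level was higher in D310N at 0 and 30 min, by 0.39 and 0.40 on the log2 scale, and the genotype differences at 60, 120, 240 and 360 min were -0.03, 0.08, 0.09 and -0.19. The call was lost without D310N replicate 3 of 360 min (adjusted p = 0.0501). The other 9 clock genes did not pass this test.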

How the results depend on the processing

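Over the 10 genes and all comparisons, 74 values passed and 106 did not. All 74 kept their call with a pseudocount of 8, which added Dbp in WT at 60 min (4 genes in place of 3), and with the replicate block, under which the counts of clock genes called were unchanged (for example 9 of 10 in WT at 120 min and 2 of 10 between the genotypes at 360 min). Testing every gene without a filter lost 3 calls. Quantile normalization lost 3 and reversed 3, all at 360 min of LPS: Arntl in WT (0.00, adjusted p = 0.981), Arntl in D310N (0.05, adjusted p = 0.53) and Cry2 in D310N (0.13, adjusted p = 0.353). It also raised the count in WT at 30 min to 2, moved the median LPS change of all genes to at most -0.11, and changed the split of all genes called higher and lower to 562 and 510 at 30 min in D310N (601 and 173 as deposited) and 599 and 620 in WT (558 and 152), and at 60 min to 1927 and 3472 in D310N (2480 and 2009) and 1870 and 3424 in WT (2341 and 1994); the cause was not tested. Fits of only the groups compared, with fewer samples, lost 6 of 68 calls and gave 4 genes in D310N and 3 in WT at 30 min, and between the genotypes 1 at 60 min, 1 at 120 min, 1 at 240 min and 0 at 360 min, where they called 0.103% of all genes. With 1 mean per replicate number, 3 against 3, the average difference of Per1 was 0.17 (adjusted p = 0.0702). Leaving out each library in turn lost 41 of 2664 called values and reversed none, and gave counts of 1 to 5 in D310N at 30 min, 3 to 5 in D310N at 60 min and 1 to 3 in WT at 30 min. Between the genotypes it gave 0 to 1 at 0 min, 0 to 1 at 30 min, 0 to 3 at 120 min, 0 to 2 at 240 min and 0 to 4 at 360 min, and 0 to 1 in the joint test. Read depth is unknown, so it could not be weighed.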
